A study of Mus musculus with 2 samples.

Results

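The replication-dependent histone genes are the genes named Hist1h to Hist4h in the mouse annotation, which encode the linker histone H1 and the core histones H2A, H2B, H3 and H4. Every gene row whose GENCODE M21 symbol begins with Hist1h, Hist2h, Hist3h or Hist4h was taken as a member, without use of any measured value. The annotation holds 70 such genes, and 67 of them matched a row among the 43346 mouse genes of both gene tables. Hist1h2bh, Hist1h2bm and Hist2h2bb matched no row and were not analysed here. The 67 members comprised 6 H1, 20 H2A, 16 H2B, 12 H3 and 13 H4 genes, of which 3 are annotated as pseudogenes (Hist3h2bb-ps, Hist1h2aj and Hist1h2al).

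Liver from C57BL/6J mice at the adult stage (8 weeks) was profiled by sequencing total RNA longer than 200 nucleotides, with no treatment or other genotype in the labels. There were 2 libraries, named as biological replicates 1 and 2 of 1 group. Each library has its own biosample, but both carry the same donor identifier, the sex was not recorded, and no label says that the tissue came from separate animals. The SDs below (n = 2 throughout) measure the spread between these libraries, which may be technical, and with 1 group no test was possible.

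Messages of this class are unusual among those of animal cells. Their genes lack introns as a rule, are transcribed mainly in S phase, when new DNA is packed into nucleosomes, and end in a short conserved stem-loop instead of a poly(A) tail. The stem-loop binding protein and the U7 small nuclear ribonucleoprotein direct the cut that makes this end, and the messages are degraded when DNA synthesis stops. Replication-independent variants such as H3.3 and H2A.Z are made throughout the cell cycle from ordinary spliced and polyadenylated messages. Adult liver consists largely of hepatocytes that rarely divide, and a total RNA library, unlike one selected for poly(A), can hold messages of both kinds.

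The stem-loop was searched in the M21 transcript models of the members as GGNNNTNNTNANNNCC, with 6 pairs closing a loop of 4 bases, within 150 nucleotides after the stop codon. Of the 49 members whose model held 16 or more nucleotides after the stop, 44 had a match, beginning 21 to 58 nucleotides (median 31.5) after the stop codon. Among all 20983 protein-coding genes searched the same way, 71 (0.338%) had one, and 46 of these carried a Hist symbol. The matches fell into 8 kinds. The kind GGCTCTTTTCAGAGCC was found in 24 members of every type except H4, which held 26.6% of the members' TPM. A second kind, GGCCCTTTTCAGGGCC, was found in 7 H4 genes that held 53.2%. The sites below show the 4 most abundant H4 messages, which share that second kind, beside abundant or library-variable members of the other types. The last site is that of Hist1h4a, a library-variable H4 gene with a further kind. Capitals mark the stem and loop, and each site is given 5′ to 3′ with 5 flanking bases.
Hist1h4d: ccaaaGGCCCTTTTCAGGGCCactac
Hist1h4h: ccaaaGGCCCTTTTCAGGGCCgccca
Hist1h4c: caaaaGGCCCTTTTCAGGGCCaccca
Hist1h4n: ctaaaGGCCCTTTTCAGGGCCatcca
Hist2h2aa2: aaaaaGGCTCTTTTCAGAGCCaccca
Hist2h2ac: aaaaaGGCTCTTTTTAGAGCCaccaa
Hist1h1c: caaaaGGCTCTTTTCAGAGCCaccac
Hist1h2bb: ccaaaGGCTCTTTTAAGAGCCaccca
Hist1h3c: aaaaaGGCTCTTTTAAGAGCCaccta
Hist1h4a: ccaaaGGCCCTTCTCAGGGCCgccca

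All of these sites lie in the annotated 3′ UTR of a single exon, in GRCm38 (mm10) coordinates. The H4 sites lie at chr13:23581945-23581970 for Hist1h4d and chr13:23531453-23531478 for Hist1h4h on the plus strand, and at chr13:23698084-23698109 for Hist1h4c and chr13:21831793-21831818 for Hist1h4n on the minus strand. The H2A sites are on the minus strand of chromosome 3, at chr3:96239779-96239804 for Hist2h2aa2 and chr3:96220413-96220438 for Hist2h2ac. No match was found in 5 members with enough sequence after the stop, namely Hist1h2bc, Hist2h3b, Hist1h1a, Hist2h2be and Hist1h2br. For Hist2h3b and Hist1h1a only 37 and 48 nucleotides follow the stop in the model. A match is a description of the letters in the model, and its absence says only that they were not in that window.

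Endogenous genes took 83816492 counts in replicate 1 and 71068181 in replicate 2, after rounding per gene. Levels are given as endogenous TPM, the length-scaled TPM unit computed with the spike-in controls left out, and amounts of sequencing in expected counts, the fragments estimated for each gene. The median gene had a TPM higher by 0.51 on the log2 scale in replicate 2, so every SD of TPM below includes that shift. All 8 hepatocyte markers checked exceeded 1 TPM in both libraries, with a summed level of 11939 TPM in replicate 1 and 19783 TPM in replicate 2. Markers of other tissues differed between the libraries. The 6 pancreatic acinar markers summed to 137 TPM in replicate 1 and 32.8 TPM in replicate 2, and the 4 skeletal muscle markers to 3.77 and 0.0201 TPM, with Tnnt3 and Myh4 at 0 counts in replicate 2. The 6 adrenal cortex markers summed to 0.181 and 13.8 TPM, with Cyp11a1 and Mc2r at 0 counts in replicate 1, and the 6 B or plasma cell markers to 1.38 and 11.9 TPM.

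The 67 members together drew 53024 of the expected counts in replicate 1 and 52020 in the other library, or 0.0633% and 0.0732% of all counts (0.0682% ± 0.00702 SD). On the TPM scale they summed to 551 and 841 TPM, or 0.0696% ± 0.0205 of the total, and to 0.483% ± 0.0438 of the TPM of protein-coding genes alone. In bulk tissue, fewer cells that make a message and less RNA per cell cannot be told apart. Of the members, 34 reached 1 TPM in both libraries, beside 16.0% of all mouse genes and 31.0% of protein-coding genes. A mean above 100 TPM was seen for 2 members, 7 lay between 10 and 100 TPM, 33 between 1 and 10 TPM, and 25 below 1 TPM. The 5 most abundant members held 66.3% ± 1.16 of the members' TPM, and the top 8 held 80.0% ± 2.88.

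**Figure D1:**
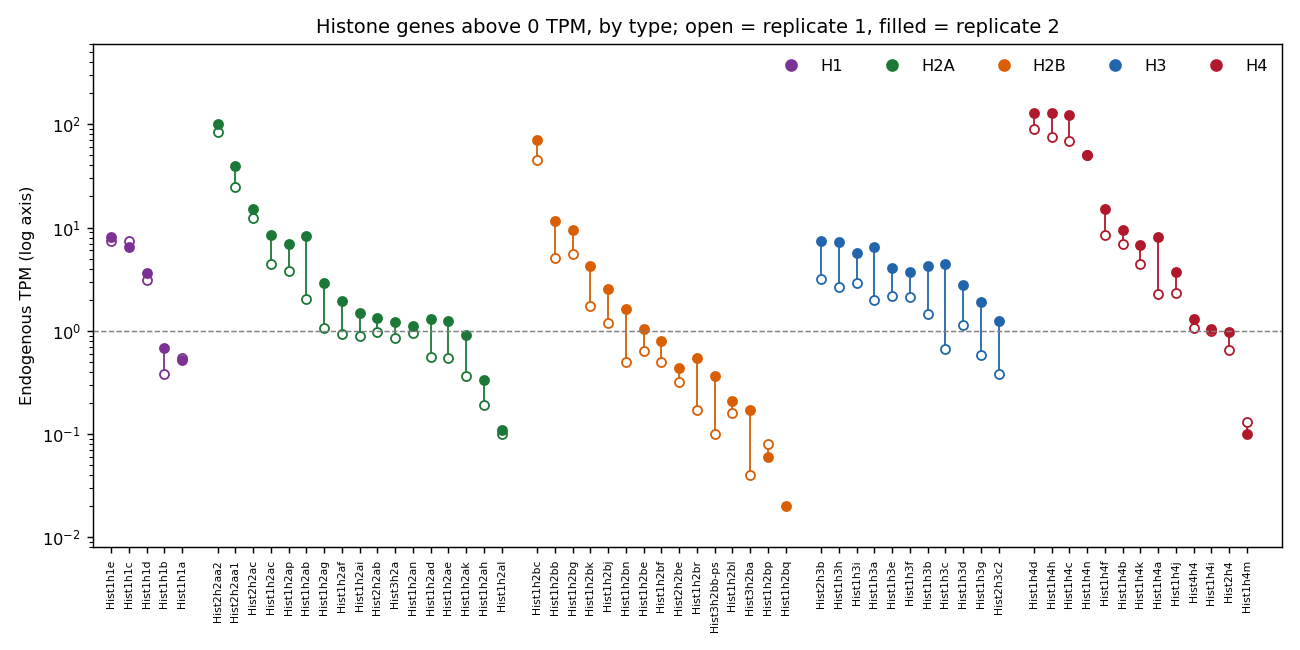
Endogenous TPM (log axis) of the 61 members above 0 TPM, grouped by histone type and ordered by mean level; open circles are replicate 1, filled circles replicate 2, lines join the libraries, and the dashed line marks 1 TPM. The 9 members with a mean of 10 TPM or more are 5 H4, 3 H2A and 1 H2B gene, and 56 of the 61 were higher in replicate 2 on this scale, where the median gene was also higher.

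H4 messages were the most abundant type. H4 is the core histone that pairs with H3 in the central tetramer of the nucleosome. Its 13 genes summed to 312 TPM in replicate 1 and 476 TPM in replicate 2, which was 56.6% and 56.7% of the members' TPM (56.7% ± 0.0162). Hist1h4d (chr13:23581598-23582735, plus strand) was at 89.6 TPM in replicate 1 and 127 TPM in replicate 2, from 5141 and 4919 counts. Hist1h4h (chr13:23531050-23531519, plus strand) was at 76.1 and 129.5 TPM, from 6288 and 7089 counts. Hist1h4c (chr13:23697635-23698454, minus strand) was at 68.3 and 122 TPM, from 3963 and 4778 counts. The means of these 3 genes were 108 ± 26.7, 103 ± 37.8 and 95.4 ± 38.3 TPM, and their order is not resolved, since the differences are smaller than the spread between the libraries. Hist1h4n (chr13:21831767-21832196, minus strand) was lower in both libraries, at 50.8 and 50.5 TPM from 3509 and 2325 counts. These 4 genes held 90.6% of the H4 total. The next H4 gene, Hist1h4f, was at 8.5 and 15.2 TPM, and the lowest, Hist1h4m, at 0.130 and 0.10 TPM.

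H2A, which dimerises with H2B on the outer faces of the nucleosome, was the second type on this scale. Its 20 members summed to 140.0 and 191 TPM, or 24.1% ± 1.85 of the members' TPM. Hist2h2aa2 (chr3:96239749-96240276, minus strand) held 55.7% of the H2A total, with 84.9 and 99.7 TPM from 8483 and 6559 counts. The copy Hist2h2aa1 (chr3:96245497-96246082, plus strand) followed with 25 and 39.3 TPM from 2954 and 3043 counts. Hist2h2ac, another H2A gene of the same cluster, was at 12.3 and 15 TPM. The values of these 3 genes were in the same order in both libraries and did not overlap. However, the Hist2h2aa2 model lies wholly within that of Hist2h2aa1. A further transcript, Gm20634 (804 and 618 counts), holds every 100-base stretch of both coding sequences. The order of Hist2h2aa2 and Hist2h2aa1, and the 55.7%, therefore rest on how shared reads were divided. Among the H2A genes of chromosome 13, the highest on this scale was Hist1h2ac, at 4.47 and 8.42 TPM. Its model is longer in M21, and per kb of M21 length it had 169 counts, below Hist1h2ap (748) and Hist1h2ab (654).

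H2B rested largely on a single gene. The 16 H2B members summed to 61.0 and 104 TPM, or 11.7% ± 0.938 of the members' TPM, and Hist1h2bc held 70.3% of the H2B total. Hist1h2bc (chr13:23684199-23692908, plus strand) was at 44.9 and 71.1 TPM, from 7432 and 7653 counts. Its mean count was close to that of Hist2h2aa2, which had more in replicate 1 and fewer in replicate 2, so their order by counts is not resolved. The next H2B gene, Hist1h2bb, was at 5.07 and 11.5 TPM, and its values did not overlap those of Hist1h2bc.

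H3 had no dominant copy by the counts given to its members. The 12 H3 members summed to 19.3 TPM in replicate 1 and 49.3 TPM in replicate 2, or 4.68% ± 1.67 of the members' TPM. Hist2h3b, the highest, was at 3.19 and 7.48 TPM and held 15.6% of the H3 total, whereas the highest gene held 27.5% in H4, 55.7% in H2A and 70.3% in H2B. Hist1h3h was next at 2.63 and 7.24 TPM, and these H3 genes overlapped in level. Nucleosomes hold H3 and H4 in equal amounts. Member H4 messages exceeded member H3 messages 16.2-fold in replicate 1 and 9.67-fold in replicate 2 on the TPM scale, and 9.996-fold and 6.33-fold by counts. With the replication-independent H3 genes added to H3, the TPM ratio was 4.67 and 4.17. All these H3 values leave out Gm20634, with 804 and 618 counts, which also holds every 100-base stretch of the Hist2h3c1 and Hist2h3c2 coding sequences. How many of its counts came from H3 messages is not resolved.

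The linker histone H1, which binds where DNA enters and leaves the nucleosome, was lowest on the TPM scale. Its 6 genes summed to 18.8 and 19.5 TPM (2.87% ± 0.778), close to H3 in replicate 1, where H3 was 1.02 times H1, and below it in replicate 2, where the ratio was 2.53. Hist1h1e, which encodes the subtype H1.4, was at 7.36 and 8.12 TPM, and Hist1h1c, which encodes H1.2, at 7.44 and 6.55 TPM. The levels of these H1 genes overlapped on this scale, but per kb of M21 length, where the Hist1h1e model is longer, they had 554 and 1586 counts on average. Hist1h1c, with a model of 1560 nucleotides, had 3159 and 1790 counts, and it took the place of Hist2h2ac among the 8 members of highest mean count.

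The order of the types depended on the scale in part. By counts alone, with no division by length, H4 held 42.1% ± 1.04, H2A 26.1% ± 1.71, H2B 18.5% ± 1.21, H1 7.85% ± 2.41 and H3 5.45% ± 1.86. H4, H2A and H2B kept their places, while H1 and H3 were exchanged and lay within each other's spread. TPM divides by the annotated length less the mean fragment length, which was 212 and 202 nucleotides, and so gives more weight to messages as short as these. Divided by the full annotated length instead, H4 was 51.1% ± 0.582, H2A 25.9% ± 2.09, H2B 14.0% ± 0.898, H3 5.02% ± 1.75 and H1 3.94% ± 1.15. The gene models matter as well. Hist1h4d was 393 nucleotides long in the models the authors used and 1138 in M21, and Hist1h4c 395 and 820. In an alternative chosen after seeing the data, counts per kb of M21 length put H4 at 46.6% ± 0.476 and H2A at 32.0% ± 2.61, and moved Hist1h4d from rank 3 to rank 7 of the members by counts per kb.

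**Figure D2:**
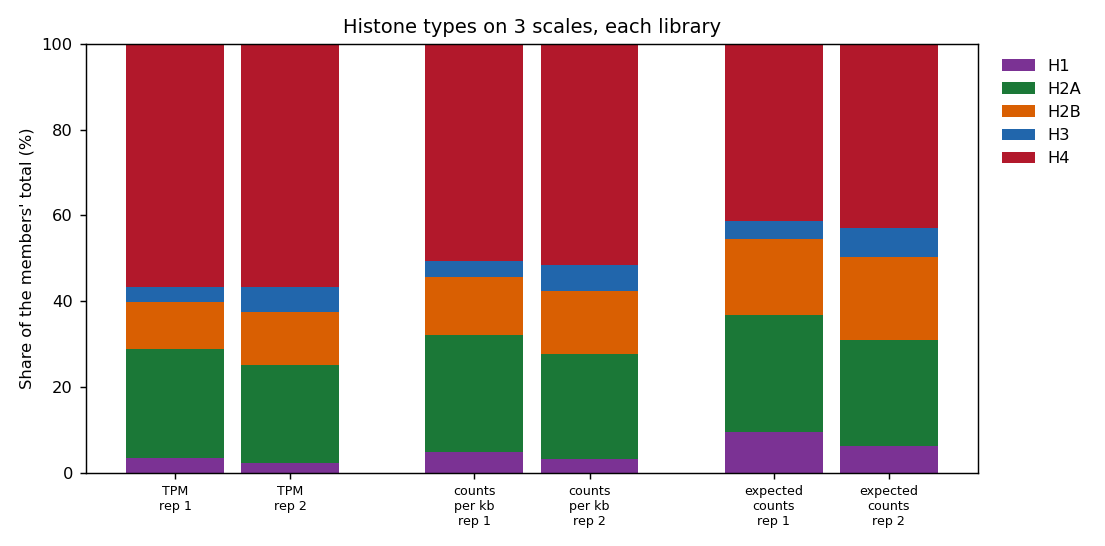
Share of the members' total (%) held by each histone type in replicates 1 and 2 (rep 1, rep 2) on 3 scales: TPM, expected counts per kb of annotated length, and expected counts. H4 is the tallest segment of every bar, from 56.7% of TPM to 42.1% of counts on average, and the H1 segment is widest in counts.

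Members of the chromosome 13 cluster made up most of the total. The 54 Hist1 genes, spread over 2 stretches at chr13:21715763-22043676 (23 genes) and chr13:23531050-23934851 (30 genes) with the pseudogene Hist1h2al far beyond them, held 78.2% ± 2.48 of the members' TPM. The second stretch alone held 65.4% ± 3.90 and the first 12.7% ± 1.42, of which Hist1h4n was 58.0%. The 9 Hist2 genes at chr3:96219865-96269141 held 21.4% ± 2.47, nearly all of it H2A (20.4% ± 2.74 of the members' TPM). Hist2h4, the only H4 gene there, was at 0.652 and 0.984 TPM. The 3 Hist3 genes on chromosome 11 held 0.194% ± 0.0195 and the single Hist4 gene, Hist4h4 on chromosome 6, 0.176% ± 0.0271. By counts the small clusters were larger, at 0.992% and 1.53%, since Hist3h2a and Hist4h4 have models of 2146 and 2879 nucleotides. Hist4h4 had 899 and 709 counts and a level of 1.07 and 1.32 TPM.

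**Figure D3:**
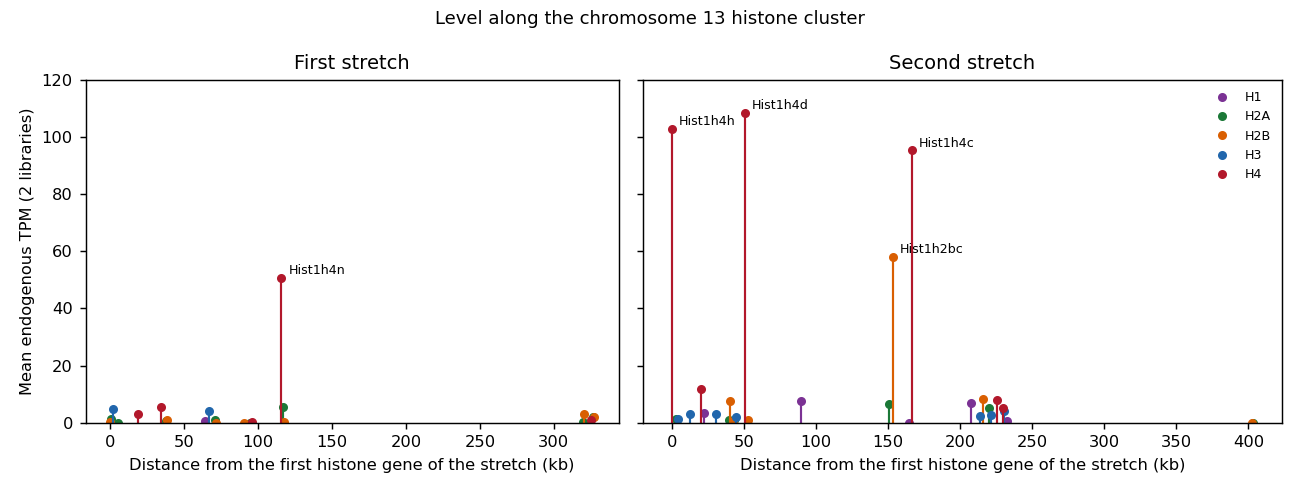
Mean endogenous TPM of the chromosome 13 histone genes against distance (kb) from the first histone gene of each stretch; each stem is 1 gene, coloured by type. The genes above 40 TPM are named: Hist1h4n in the first stretch and Hist1h4h, Hist1h4d, Hist1h2bc and Hist1h4c in the second stand among neighbours near the axis.

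Neighbouring genes often differed in level. Many H2A and H2B genes lie head to head and are transcribed outward from a short common promoter region. There were 13 such H2A–H2B pairs among the members, with start sites 173 to 306 bp apart. In the 11 pairs with both partners above 0 TPM, the higher partner exceeded the lower 1.06-fold to 36.2-fold (median 8.41), more than 5-fold in 7 pairs, and the order was the same in both libraries in 10. The H2A gene was higher in 7 of these pairs and the H2B gene in 4. Among the pairs over 5-fold, some lower partners had few counts: Hist1h2bp (6.73 and 3.36), Hist1h2bl (8.56 and 7.50) and Hist1h2ah (11.4 and 13.6). Hist1h2ap exceeded Hist1h2br 15.2-fold in TPM. In counts they had 325 and 396 against 55.2 and 115, with models of 482 and 1256 nucleotides. The partner of Hist3h2a is the pseudogene Hist3h2bb-ps. Hist1h2bc, at 58.0 ± 18.5 TPM, starts 251 bp from Hist1h2ac, at 6.44 ± 2.79 TPM, and their counts were 7432 and 7653 against 373 and 465. Hist2h2ac, at 13.6 ± 1.90 TPM, starts 239 bp from Hist2h2be, at 0.377 ± 0.0783 TPM. In counts this pair was closer, with 1197 and 961 against 240 and 212, since the Hist2h2be model has 2620 nucleotides. Hist1h2ag and Hist1h2bj did not differ beyond the spread, with 1.98 ± 1.28 and 1.87 ± 0.966 TPM. These pairs were chosen after their values were seen.

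Promoter letters differed between the types. RefSeq (GRCm38.p6) gave a promoter for 58 of the 67 members, and the 250 bases before each start were searched on both strands. Hist1h2bc, the most abundant H2B gene, was not among the 58. CCAAT, the site letters of the factor NF-Y, occurred in all 6 H1, 17 H2A and 13 H2B promoters and in 8 of 10 H3 promoters, but in 3 of 12 H4 promoters, beside 34.5% of all 27025 promoters. TATAAA occurred in 29 of the 58 and in 13% of all promoters. The octamer ATTTGCAT, which POU factors such as Oct-1 recognise, was in 7 of 17 H2A and 4 of 13 H2B promoters and in none of the H1, H3 or H4 promoters, beside 1.61% of all. Divergent H2A and H2B genes start 173 to 306 bp apart, so their searched stretches overlap and a site can count for both partners. The octamers of Hist1h2ae and Hist1h2bg are the same site, as are those of Hist1h2ah and Hist1h2bk. The octamer of Hist1h2aa also lies in the stretch searched for Hist1h2ba and so counted for both. The H2A and H2B counts of each motif are thus not independent. AAACACA, named the H1 box, was in 5 of 6 H1 promoters and 6.22% of all. The windows below show the H1 box of the most abundant H1 genes and the octamer of an H2A and 2 H2B genes, with the motif in capitals on the strand of the gene.
Hist1h1e: tgaggtgtaacAAACACAactccgcatctg
Hist1h1c: tgaagtgtaacAAACACAagttgggcgcag
Hist2h2ac: atgaacgccttATGCAAATtaggtctcaaa
Hist1h2bb: ttgagtctcttATTTGCATaaagcctttga
Hist1h2bg: ttgagtcccttATTTGCATagaacctctat

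The windows lie at chr13:23622655-23622684 (minus strand) for Hist1h1e and chr13:23738684-23738713 (plus strand) for Hist1h1c. They lie at chr3:96221062-96221091 (minus strand) for Hist2h2ac, chr13:23746633-23746662 (plus strand) for Hist1h2bb and chr13:23571330-23571359 (plus strand) for Hist1h2bg. The last window is shared with the divergent neighbour Hist1h2ae, whose level was 0.889 ± 0.490 TPM beside 7.47 ± 2.76 TPM for Hist1h2bg. That pair shares the octamer and differs in level, and no binding was measured.

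Members listed at 0 counts in both libraries were 5. Hist1h1t, Hist1h2aa and Hist1h2ba encode linker and core histones of the testis, and of the 4 germ cell markers Tnp1 and Prm1 were also at 0 counts in both libraries, whereas Dazl had 9 and 5 counts and Ddx4 0 and 2. A count of 0 allows up to 3 counts, or 0.0377 CPM (the unit of counts scaled to a common library total by the TMM method) in replicate 1 and 0.0401 CPM in replicate 2, for counting error only. The others were the pseudogene Hist1h2aj and Hist2h3c1. The 411 coding bases of Hist2h3c1 are identical to those of Hist2h3c2, and its model lies wholly within Gm20634 on the same strand, which had 804 and 618 counts. Its value is therefore uncertain, and the 0 is no limit on its level.

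Single members differed widely in how certain their counts were. The authors' posterior SD of a count measures how far reads that match several genes leave that count uncertain. It exceeded 10% of the count in either library for 9 of the 62 members with counts, beside 4.58% of all genes with counts (among those with a mean count of 10 or more, for 5 members beside 2.50%), and was 1% or less for 26. These 9 held few counts, and members at 10% or less held 99.5% ± 0.0978 of the members' TPM. The largest values were 73.3% for Hist1h2ao, 62.8% for Hist1h4m, 53.9% for Hist1h2bq, 35.0% for Hist1h2ah and 25.7% for Hist1h2ad. By type, the median was 0.0547% for H1, 0.196% for H4, 3.71% for H2B, 4.18% for H3 and 5.62% for H2A.

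The coding sequences were compared in windows of 100 bases, counting a window as unique when no other annotated gene's transcript held it. The median share of unique windows was 95.1% for the 6 H1 genes, 41.1% for H2B, 39.9% for H4, 28.4% for H3 and 14.1% for H2A. It was 0 for the 9 members with a posterior SD over 10% and 41.1% for the 51 other coding members with counts. Hist1h4d, at 100% unique windows, had a posterior SD of 0, and its coding sequence differs from that of Hist1h4h at 19 of 312 bases. Some abundant genes were certain by this measure although their coding sequence is shared. Hist1h4n and Hist1h4m have identical coding sequences and share an unbroken run of 366 bases, and 3509 and 2325 counts were given to Hist1h4n against 7.70 and 3.87 to Hist1h4m, with posterior SDs of at most 0.167% and 62.8%. Hist2h2aa2 has a model of 528 nucleotides that lies, base for base, within the 586 nucleotides of Hist2h2aa1. Their posterior SDs were at most 1.10% and 2.37%, and the single values of both are uncertain because of this shared sequence. Some models also overlap other genes. On the same strand 6 members overlap another gene, and on the opposite strand 22. Hist1h1e overlaps Hist1h2be over 496 bp of the same strand, Hist3h2a lies inside Trim17, and whether the counting used strand is not given in the sources used here.

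**Figure D4:**
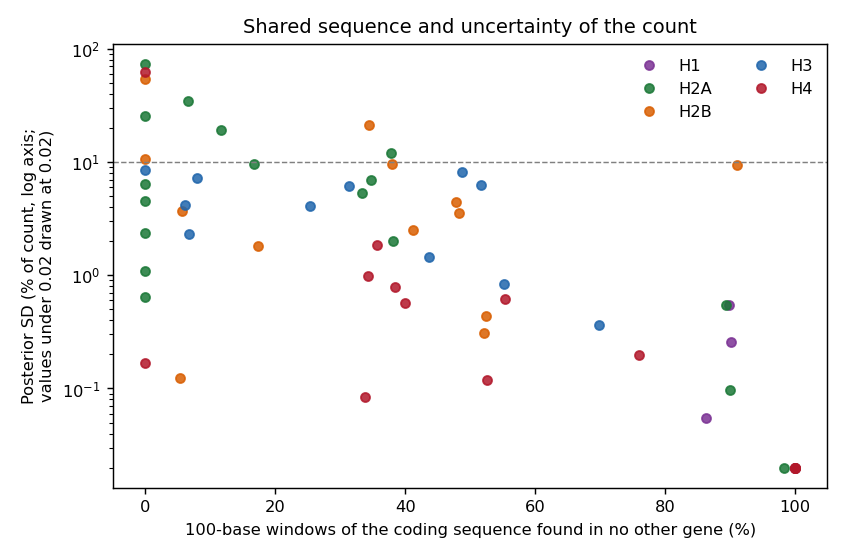
Posterior SD of the count (% of the posterior mean count, larger of the 2 libraries, log axis, values under 0.02 drawn at 0.02) against the share of 100-base coding windows found in no other gene, for the 60 coding members with counts, coloured by type. Members above the dashed line at 10% all lie at 37.8% unique windows or less, and H1 genes lie at the lower right.

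Transcript models gave 72 transcripts for the members, and 63 members had 1. Only 5 members had a transcript of more than 1 exon in M21. Such transcripts held 8.28% of the members' TPM in replicate 1 and 8.63% in replicate 2, and 0.133% and 0.177% without Hist1h2bc. The single transcript of Hist1h2bc was 736 nucleotides long in the models the authors used and is 1156 nucleotides long with 2 exons in M21, and no stem-loop was found after its stop, as described above. Hist1h2be, another H2B gene with 2-exon models, was at 0.642 and 1.03 TPM, and its transcript with 75.3% and 86.1% of the gene's level was one of these. Hist1h2br was at 0.171 and 0.542 TPM and Hist1h2bq at 0 and 0.0201 TPM. Of all 67 members, 25 have an M21 model that runs on more than 50 nucleotides past the stem-loop, and 19 have one that ends within 50 nucleotides of it. The level was computed on the authors' models, which had the same length as in M21 for 12 of the 25 and 15 of the 19, and Hist1h4d and Hist1h4c are among the 25 although they were quantified on models of 393 and 395 nucleotides. The M21 models of 15 members end at or near the stop. No value here shows whether a message carried a poly(A) tail.

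Whether replication-independent variants or replication-dependent genes were higher differed by type. H3f3a and H3f3b, which both encode the variant H3.3, were at 38.0 and 17.6 TPM on average. With Cenpa they summed to 47.6 and 64.9 TPM, above the 19.3 and 49.3 TPM of the 12 H3 members, or 71.2% and 56.9% of all H3 messages counted. For H2A the order was the reverse. The 6 variants, led by H2afz (H2A.Z) at 20.8 ± 8.77 TPM, summed to 28.4 and 48.8 TPM against 140.0 and 191 TPM for the members. For H1, H1f0 (H1.0) was at 8.06 and 8.75 TPM, close to Hist1h1e and Hist1h1c, and the 2 variants held 30.0% and 31.0% of the H1 total. Each of these orders was the same in both libraries.

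The libraries were compared as replicate 2 over replicate 1, by the log2 ratio of TMM-scaled CPM, with 0.05 CPM added, which equals 3.98 and 3.74 counts. A positive ratio means higher in replicate 2. Of the members, 42 had a mean of 1 TPM and 10 counts or more. Their median ratio was 0.31, beside -0.04 over the 7702 genes that passed the same filter. Of these 42, 30 (71.4%) were higher in replicate 2, where 44.5% of all genes were. Scaled by the spike-in total 38 of 42 were higher, beside 82.2% of all genes, and by deposited TPM 40 of 42, beside 93.0%, and with these 30 and 29 lay above the median of all genes. More than 2-fold higher in replicate 2 were 6 members, beside 0.883% of all genes, and more than 2-fold higher in replicate 1 were 0, beside 1.78%, so that 6 were apart in either direction, beside 2.66%. The 42 hold the 34 members at 1 TPM in both libraries, and the rest were under 1 TPM in replicate 1. Among the rest were Hist1h3c (0.662 and 4.41 TPM), Hist1h3g (0.582 and 1.92) and Hist1h2bn (0.502 and 1.63), which belong to the 6. These passed the filter only through the library where they were high, so the count of 6 depends on the filter. These ratios describe a pair of libraries of 1 group and carry no test.

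The types moved apart in this comparison. All 10 H3 members that passed were higher in replicate 2, with a median ratio of 0.84, as were all 6 H2B members (0.63). The 10 include Hist1h3c and Hist1h3g, and the 6 include Hist1h2bn, which were under 1 TPM in replicate 1. At a mean count of 50 or more without the TPM filter, chosen after seeing the data, 11 of 11 H3 and 7 of 8 H2B members were higher. Hist1h3g, with 39.9 and 87.1 counts, still passed only through replicate 2. The median share of unique 100-base coding windows was 28.4% for H3 and 41.1% for H2B. Reads shared between members were divided among them, so their ratios are not independent. Of the H2A members 7 of 12 were higher (0.18), of the H4 members 7 of 11 (0.14), and of the H1 members 0 of 3 (-0.39). The spike-in total as the scale moves the median of all genes to 0.28, and the deposited TPM to 0.51. Relative to the all-gene median, the 10 H3 and 6 H2B members stayed above it and the 3 H1 members below it under DESeq2 size factors, spike-in scaling, TPM and the larger pseudocount of 0.5 CPM. Above 0, however, 1 of the 3 H1 members was found with spike-in scaling and 2 with TPM. Adjusted for GC content and length, which was chosen after seeing the data, 1 H1 member was above the all-gene median.

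Hist1h3c showed the largest ratio, with 57.7 counts in replicate 1 and 256 in replicate 2, or 2.16 ± 0.23 on the log2 scale (standard error from counts and posterior SD, which covers the error of counting only). Hist1h2ab followed with 169 and 449 counts (1.48 ± 0.16), then Hist1h4a with 237 and 550 (1.29 ± 0.11). Hist1h3a had 204 and 437 counts (1.17 ± 0.12). Hist2h3c2, which was under 1 TPM on average and so outside the 42, had 96.3 and 206 counts (1.15 ± 0.24). Its coding sequence has 0% unique 100-base windows and is held whole by Gm20634 (804 and 618 counts), so this ratio rests on how shared reads were divided. Hist1h3g (1.14 ± 0.31) and Hist1h2bn (1.11 ± 0.34) completed the 6 and were named after their values were seen. Except for Hist1h2ab, Hist1h4a and Hist1h3a, these genes had 256 counts or fewer in either library.

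At the other end, Hist1h1c was lower in replicate 2, with 3159 and 1790 counts (-0.73 ± 0.04). Hist1h1a had 74.0 and 46.0 counts (-0.56 ± 0.27), Hist1h4n 3509 and 2325 (-0.50 ± 0.04), Hist1h4i 163 and 109 (-0.48 ± 0.18) and Hist1h1e 1245 and 893 (-0.39 ± 0.06). With deposited TPM Hist1h4i and Hist1h1e turned to 0.04 and 0.14, and all of these remained below the all-gene median of 0.51 on that scale. H4 genes thus stood at both ends, with Hist1h4a high and Hist1h4n and Hist1h4i low. The 9 members at 10 TPM or more ranged from -0.50 to 0.36 (median 0.13), with 0 more than 2-fold apart, and the 33 between 1 and 10 TPM from -0.73 to 2.16 (median 0.40), with all 6. The 3 members that passed with models over 1000 nucleotides, were Hist1h1c, Hist4h4 (-0.25 ± 0.07) and Hist3h2a (-0.04 ± 0.09), of which the last differed by less than its error and the last 2 turned positive with spike-in scaling and with TPM.

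**Figure D5:**
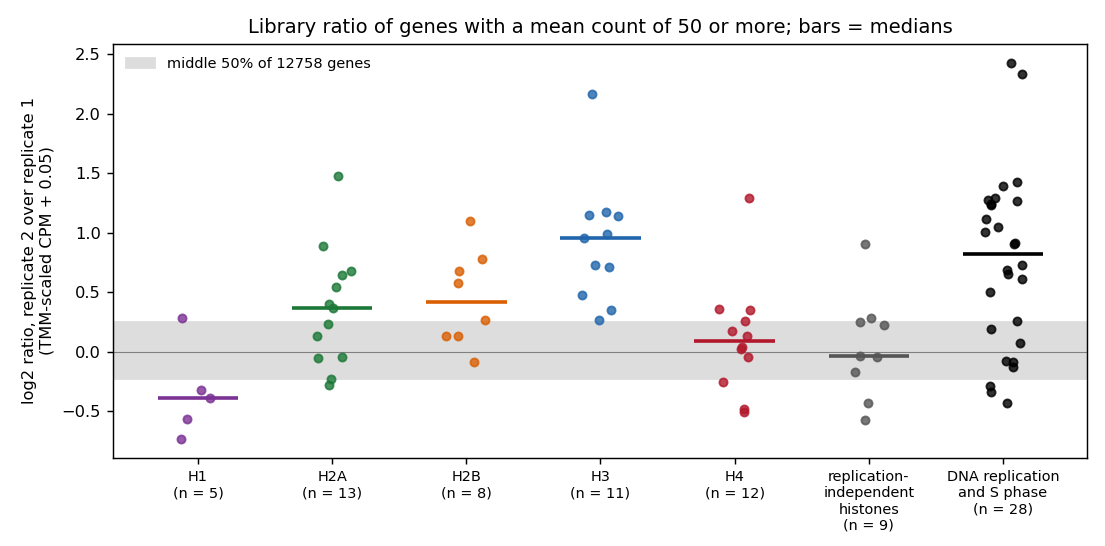
Log2 ratio (replicate 2 over replicate 1) of histone genes by type, of replication-independent histones and of the DNA replication and S phase list, for genes with a mean count of 50 or more; points are genes, bars are medians, and the grey band is the middle 50% of 12758 genes (-0.23 to 0.25). All 11 H3 points lie above the band, the H4 points straddle it, and 4 of 5 H1 points lie below it.

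Genes of the wider histone pathway were compared with a filter of a mean count of 50 or more and no TPM filter, chosen after seeing the data because many of them are long and under 1 TPM. With it, 49.6% of all genes were higher in replicate 2 and 2.30% more than 2-fold higher. The members numbered 49, of which 36 were higher (median 0.28) and 7 more than 2-fold. Hist1h3g, among the 7, passed only through replicate 2 (39.9 and 87.1 counts). Of the 28 genes of DNA replication and S phase, 22 were higher (median 0.82) and 12 more than 2-fold. Among the 12, Ccnb1 (28 and 148 counts), Gins2 (30 and 73) and Cdc45 (46 and 111) passed only through replicate 2. The counts of 7 and 12 thus depend on the filter. Mki67, a marker of dividing cells, had 217 and 488 counts, Top2a, which untangles replicated DNA, 215 and 479, and Ccna2, the S phase cyclin, 50 and 269. Pcna, the replication clamp, had 1703 and 1828 counts, a ratio of 0.19. At 1 TPM and 10 counts only 7 genes of this list passed, with a median of 0.19, 5 higher and 0 more than 2-fold.

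The machinery that makes and cuts these messages lay near the median of all genes. Of its 27 genes with a mean count of 50 or more, 14 were higher in replicate 2 (median 0.05) and 0 more than 2-fold. Slbp, the stem-loop binding protein, was at 2.27 and 3.23 TPM from 829 and 736 counts. Npat, the coactivator of histone gene transcription, had 662 and 542 counts, and Casp8ap2, which takes part in histone message processing in the nucleus, 772 and 499. The U7 proteins Lsm10 and Lsm11 had 460 and 606, and 130 and 204 counts. Eri1, a nuclease that trims the stem-loop end, had 1024 and 856 counts, and Zfp473, which associates with the U7 particle, 23 and 7. The most abundant genes of this list were Snrpb (8.33 TPM), Snrpe (8.20 TPM) and Nfyb (4.3 TPM), which serve general splicing or transcription as well. Of 18 histone chaperone genes, 8 were higher (median -0.06), and of 9 replication-independent histones 4 were higher (median -0.03), with 0 of either more than 2-fold. Atrx led the chaperones at 12.3 TPM.

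The marker lists of other tissues differed between the libraries along with these ratios. All 5 adrenal cortex markers and all 4 B or plasma cell markers with a mean count of 50 or more were over 2-fold higher in replicate 2, all 6 acinar and all 4 muscle markers over 2-fold lower, and all 4 such erythroid markers higher (summed level 116 and 236 TPM). All 5 of these adrenal and all 4 muscle markers, with Igkc and Jchain, had under 50 counts in the library where they were lower. They passed the filter only through the other library, so these tallies depend on it. The part of these tissues in the ratios of the H3, H2B and H1 genes was not tested. The germ cell markers summed to 0.010 TPM in both libraries, and the 4 T or NK cell markers to 0.371 and 0.522 TPM.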

How the data were processed

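Total RNA of mouse liver was measured in 2 libraries of 1 group, and the members and gene lists were chosen with earlier results of these data known. The authors deposited gene and transcript tables for each library, made against mm10 and GENCODE M4 models per the deposited notes. Aligner, quantifier and strand setting, with versions, were not given in the sources used here. Per the file headers these hold expected counts, which are estimated and not normalized, with their posterior mean and SD. The deposited TPM is scaled by effective length and sums to a fixed total over all features, spike-ins included. The deposited FPKM is scaled by effective length and total, and was used only as a detection threshold. The deposited percent of each transcript in its gene (IsoPct) was used as given.

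Gene names, coordinates and transcript sequences were taken from GENCODE M21 (GRCm38), which matched 42462 mouse rows and not 884. TPM was rescaled over mouse genes. Expected counts were rounded, and the libraries scaled by TMM in edgeR 4.0.16 (factors 0.950 and 1.05) in R 4.3.3. The filter was a mean of 1 TPM and 10 counts, and a 2-fold difference was called. The standard error joins counting error and the posterior SD. The ratio was tested on simulated data. Python 3.11.15, numpy 2.4.6, pandas 2.3.3 and matplotlib 3.10.9 were used. Since there is 1 group, no p-value was computed.

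Members named with values were the 12 highest by TPM, the 2 highest of each type, the highest of each cluster, the 5 largest and 5 smallest ratios at a mean count of 50 or more, the 5 largest posterior SDs, those with a multi-exon transcript at 20% or more of their level, and the 3 testis members. Of the other lists the rule names the 3 highest genes and a fixed set of processing and proliferation genes. Others were chosen after their values were seen, Ccna2 among them. Of the listed names Ars2, Zcchc6 and Mizf matched no row. Alternatives were DESeq2 1.42.0 size factors, spike-in scaling, TPM ratios, a pseudocount of 0.5 CPM, other filters, thresholds and lengths, posterior mean estimates, members of low posterior SD, and each library left out.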

Additional observations from a re-analysis of the deposited data

How the results depend on the processing

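Ratios of single genes changed sign for 5 of 27 with spike-in scaling (Hist1h4b, Hist2h2aa2, Hist2h2ac, Hist3h2a and Hist4h4) and for 7 with TPM (these 5, Hist1h1e and Hist1h4i), none of them over 2-fold before, and for 0 with DESeq2 size factors or the pseudocount of 0.5 CPM. The H1 median turned from -0.39 to 0.14 with TPM. With counts not divided by length the shares of the members' total were 7.85% for H1, 26.1% for H2A, 18.5% for H2B, 42.1% for H4, 73.3% for Hist1, 24.1% for Hist2, 0.992% for Hist3 and 1.53% for Hist4. Per kb of annotated length they were 3.94% for H1, 25.9% for H2A, 14.0% for H2B, 51.1% for H4, 0.286% for Hist3 and 0.288% for Hist4. Per kb of M21 length, chosen after seeing the data, H2A was 32.0%, H4 46.6%, Hist1 69.5%, Hist2 29.8%, Hist3 0.364% and Hist4 0.368%. Posterior mean estimates put H4 at 56.6% and members of low posterior SD at 56.9%. Among protein-coding genes the members held 0.483% of TPM and 0.0939% of counts. Detection gave 58 members at 0.1 TPM, 54 at 10 counts, 52 at 1 FPKM and 55 at 1 TPM of protein-coding genes. A posterior SD over 5% was seen in 22 members, over 1% in 36, and over 10% in 5 with a mean count of 10 or more. The median ratio was 0.63 with spike-in scaling, 0.82 with TPM and 0.13 at 10 TPM or more, where 6 of 9 members were higher and 0 over 2-fold. Over 2-fold apart were 12 with spike-in scaling, 15 with TPM and 11 without the filter. With a mean count of 50 or more the median was 0.28 (36 of 49 higher), and adjusted for GC content and length 0.34 (32 of 42), both chosen after seeing the data. Of the single-gene ratios, 20 of 27 moved by more than their error with spike-in scaling and 25 of 27 with TPM. The cause of these shifts was not tested, except that the length scales differ by construction.

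With 1 library left out, the TPM share ranged from 0.0551% to 0.0841%, the count share from 0.0633% to 0.0732%, H1 from 2.32% to 3.42%, H2A from 22.8% to 25.4%, H2B from 11.1% to 12.4%, H3 from 3.49% to 5.86%, H4 from 56.6% to 56.7%, Hist1 from 76.5% to 80.0%, Hist2 from 19.7% to 23.2%, Hist3 from 0.180% to 0.208%, Hist4 from 0.156% to 0.195% and multi-exon transcripts from 8.28% to 8.63%. Detected members ranged from 34 to 46 and those of posterior SD over 10% from 7 to 8. A ratio needs both libraries and has no such value. No paired analysis was possible because the libraries form a single group. A spread from 2 libraries is itself imprecise, and counts under about 50 carry counting errors that exceed most of the ratios.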
